A study of Mus musculus with 8 samples.

Results

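Peaks of 5-hydroxymethylcytosine (5hmC) were examined at 3 mouse genes for receptors that steer growing axons, Dcc, Robo1 and Robo2. Every peak that overlapped chr18:71400000-72530000 (Dcc) or chr16:72300000-74450000 (Robo1 and Robo2) of the mm9 build by at least 1 bp was kept. This gave 152 of the 393283 peaks in the 8 deposited lists, of which 24 lay in the Dcc interval. The chromosome 16 interval was cut at its midpoint, position 73375000. The lower side, called Robo1 here, held 112 peaks and the upper side, called Robo2, held 16.

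The peaks come from hippocampal DNA of C57BL/6 mice, with 2 samples in each of 4 groups. Young mice are labelled 6 weeks and aged mice 18 months, and each age was housed in standard control cages or given an enriched environment. Enrichment was 5 h per day for 4 weeks in a roomier chamber that held toys, tunnels, an exercise wheel and extra bedding. 5hmC-bearing fragments were tagged with a modified glucose, biotinylated, captured and sequenced, so a peak marks a stretch where captured fragments piled up and gives no level per cytosine. Whether replicate samples are different animals is not in the labels, and their spread may therefore be technical. Whole hippocampus mixes cell types, and a mark in fewer cells cannot be told apart from less mark per cell.

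Dcc is a receptor for netrin, a secreted cue that draws axons towards the midline of the nervous system. Robo1 and Robo2 are receptors for Slit proteins, which repel axons, and the Robo family sets where fibres may cross the midline. These receptors are single-pass membrane proteins of the immunoglobulin superfamily, and Dcc stays in use at synapses of the adult brain. The mark itself is made when TET enzymes oxidise 5-methylcytosine. In neurons it is abundant and lies largely on cytosines of CpG pairs within gene bodies.

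The files carry no gene models, and no mm9 annotation was used here, so peaks are placed by position and not by exon or intron. By length alone, the RefSeq models of the later build GRCm38.p6 span 1097616 bp for Dcc, 1019974 bp for Robo1 and 1555468 bp for Robo2. The Dcc interval of 1.13 Mb and the Robo1 side of 1.075 Mb are each longer than the gene's model, but length does not show that either holds the whole gene. The Robo2 model is longer than its 1.075 Mb side, so the Robo2 values cover part of that gene at most. In the same RefSeq table Robo1 and Robo2 are the neighbouring protein-coding genes on their chromosome.

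Promoter sequence is shown because the captured mark sits mainly on CpG cytosines and the starts of these genes differ in how many they hold. The RefSeq promoter table (GRCm38.p6) matched Robo1 with 1 start and Robo2 with 3, and had no entry for Dcc. The 250 bases before the start are printed 5′ to 3′ on the strand of the gene, with every CG pair in capitals. The Robo1 start and both Robo2 starts shown lie within the span of the gene's RefSeq model, not at its outer end. The Robo1 stretch is chr16:72662899-72663148 (plus strand), and the Robo2 stretches are those with the most and the fewest CG pairs, chr16:74411826-74412075 and chr16:75092771-75093020 (minus strand).
Robo1: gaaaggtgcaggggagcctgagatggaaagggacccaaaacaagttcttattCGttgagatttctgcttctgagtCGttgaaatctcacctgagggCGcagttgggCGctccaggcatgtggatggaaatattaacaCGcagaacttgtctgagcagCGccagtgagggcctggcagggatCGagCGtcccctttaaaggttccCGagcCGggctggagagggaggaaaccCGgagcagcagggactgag
Robo2 start richest in CG: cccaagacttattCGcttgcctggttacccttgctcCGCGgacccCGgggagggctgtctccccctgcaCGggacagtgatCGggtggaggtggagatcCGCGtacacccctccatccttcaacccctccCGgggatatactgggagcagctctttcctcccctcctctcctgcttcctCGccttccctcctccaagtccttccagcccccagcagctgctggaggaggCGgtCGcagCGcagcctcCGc
Robo2 start poorest in CG: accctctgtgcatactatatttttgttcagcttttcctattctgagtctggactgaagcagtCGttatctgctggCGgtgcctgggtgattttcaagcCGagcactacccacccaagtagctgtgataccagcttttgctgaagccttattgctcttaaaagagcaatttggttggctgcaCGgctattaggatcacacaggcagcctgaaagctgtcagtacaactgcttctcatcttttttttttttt
CG reads the same on both strands. It occurs 11 times in the Robo1 stretch and 14 and 4 times in the pair from Robo2, against a median of 6 over 32851 promoter stretches of that length, 92.1% of which hold at least 1. The Robo1 stretch has more CG pairs than 64.4% of them, and the Robo2 stretches more than 70.6% and 37.8%. These GRCm38 positions cannot be set against the mm9 peaks, so no statement on a peak at a promoter is made. For the same reason the printed starts are not shown to lie inside the intervals examined.

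The 8 lists held 25548 to 78980 peaks, and the number of reads behind each is unknown. The list of aged enriched replicate 2 stood apart. Its median peak width was 430 bp against 650 to 952 bp in the other lists, and 72.4% of its peaks had a score of at least 100 against 9.92% to 31.9%. Scores, which the authors assigned per peak and which are at least 50 in every list, describe peaks within a list. In the alternatives they also serve as a cut, either a score of at least 100 or the best-scored 25548 peaks of each list. The main results that rest on this sample are given with and without it.

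The Robo1 side carried most of the 5hmC peaks of the 3 intervals. Robo1 held 13 and 26 peaks in young control, 16 and 19 in young enriched, 10 and 8 in aged control, and 7 and 13 in aged enriched samples. Young samples ranged from 13 to 26 and aged samples from 7 to 13, so the ages met at a single value, 13 peaks. Dcc, the netrin receptor, held 2 and 9 peaks in young control, 4 and 4 in young enriched, 0 and 1 in aged control, and 0 and 4 in aged enriched samples. Robo2 held 1 and 5, 3 and 2, 1 and 0, and 1 and 3 peaks in the same order of groups. Aged control was the lowest group for each gene by mean, with 9.0 ± 1.41 peaks at Robo1 and 0.50 ± 0.707 at both Dcc and Robo2 (SD, n = 2).

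**Figure D1:**
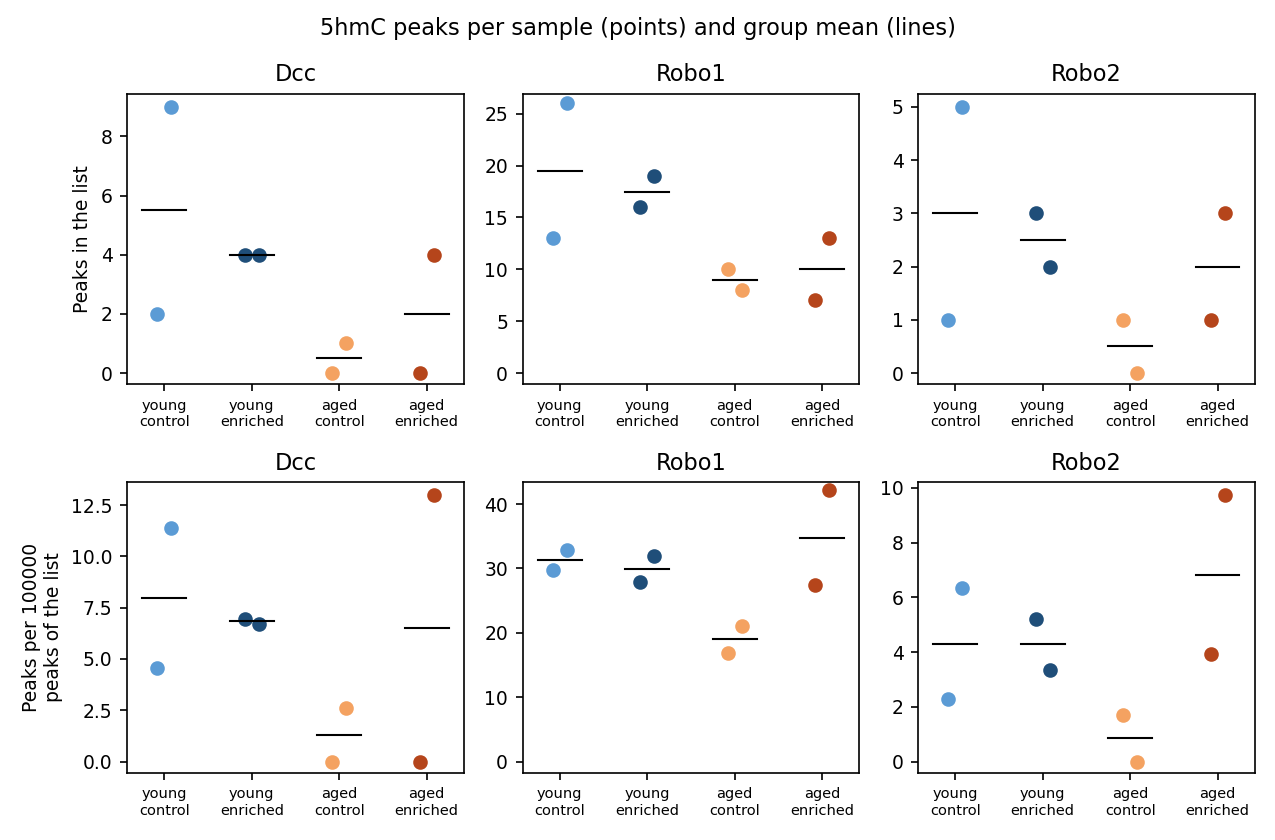
Number of peaks (upper row) and peaks per 100000 peaks of the sample's list (lower row) at Dcc, Robo1 and Robo2, with 1 point per sample and a line at the mean of each group of 2. Robo1 runs from 7 to 26 peaks and the other genes from 0 to 9, and after division by list length aged enriched replicate 2 is the highest sample at each gene.

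The length of DNA under peaks was likewise smaller in aged samples. At Robo1 it averaged 18.3 ± 11.9 kb in young control, 15.1 ± 1.98 kb in young enriched, 7.30 ± 1.93 kb in aged control and 5.31 ± 0.622 kb in aged enriched samples (SD, n = 2 each). All 4 young samples (9.93 to 26.7 kb) lay above all 4 aged samples (4.87 to 8.66 kb). These lengths are not relative to list length, which ran from 25548 to 59260 peaks in aged and from 43709 to 78980 in young samples. At Dcc the groups averaged 3.82 ± 3.48, 2.91 ± 0.169, 0.307 ± 0.433 and 0.728 ± 1.03 kb in the same order, and at Robo2 2.34 ± 2.14, 2.08 ± 0.81, 0.340 ± 0.48 and 0.930 ± 0.281 kb.

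The Dcc interval and the Robo2 side were poor in peaks and the Robo1 side was close to the median autosomal window. Over the 8 samples Robo1 held 13.0 ± 5.84 peaks per Mb, Dcc 2.65 ± 2.63 and Robo2 1.86 ± 1.49 (SD, n = 8). Of 2174 autosomal windows of 1 Mb with any peak, 46.2% held fewer peaks on average than Robo1, 22.4% fewer than Dcc and 17.9% fewer than Robo2. Over all 2472 autosomal windows these shares were 52.7%, 31.7% and 27.8%. With 1 peak added per interval, the density was 6.96-fold below the sample's autosomal mean at Dcc and 7.67-fold below it at Robo2, lower in 8 of 8 samples for each (log2 ratios −2.80 ± 1.03 and −2.94 ± 0.739, SD). Each had p = 0.00781 by a two-sided exact permutation test of signs over the samples, the smallest p that 256 sign assignments can give. The size depends on the added peak: the log2 ratio was −3.54 at Dcc and −3.59 at Robo2 with 0.25 peak, and −1.71 and −1.79 with 4 peaks, still lower than the autosomes by the same test. Robo1 was 1.45-fold below the autosomal mean, lower in 7 of 8 samples (log2 ratio −0.53 ± 0.384, exact permutation p = 0.0156). The autosomal mean is pulled up by dense windows, and the median window with a peak held 15.4 peaks. The test asks whether an interval lay below that mean across the lists, not whether it is unusual among windows.

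**Figure D2:**
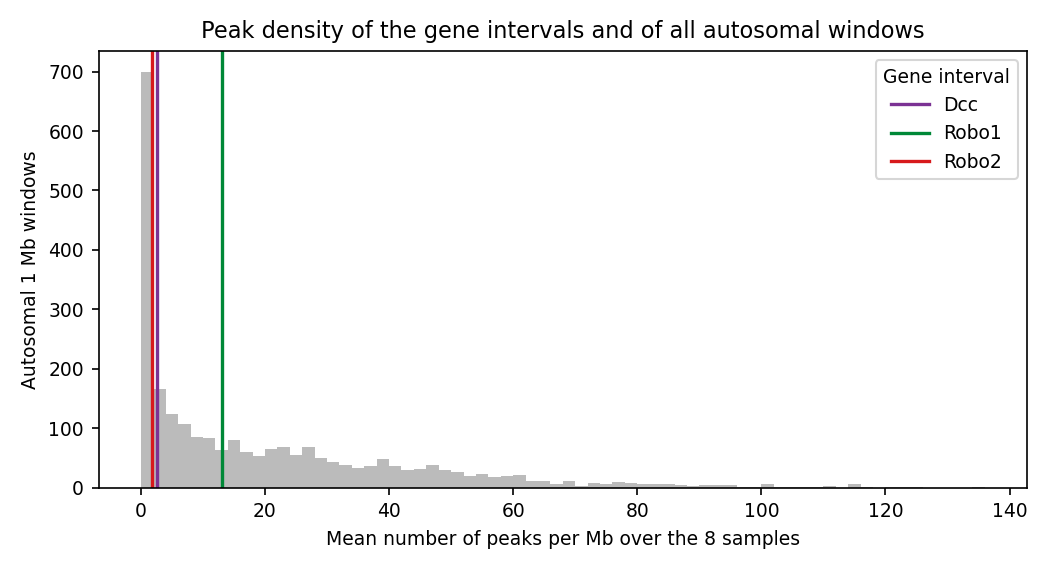
Histogram of the mean number of peaks per Mb over the 8 samples in autosomal windows of 1 Mb, with vertical lines at the 3 gene intervals. Dcc (2.65) and Robo2 (1.86) fall in the peak-poor left edge and Robo1 (13.0) near the middle of the windows.

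The lower and upper sides of the chromosome 16 interval differed clearly from each other. The cut lay at the midpoint, so the ratio compares these sides and not whole genes. Robo1 had 5.30-fold the density of Robo2, higher in 8 of 8 samples (log2 ratio 2.40 ± 0.469, SD, exact permutation p = 0.00781). It had 4.80-fold the density of Dcc, again in 8 of 8 samples (exact permutation p = 0.00781). Dcc and Robo2 were 1.10-fold apart, with Dcc lower in 2 of 8 samples, and this difference was within the spread between samples (log2 ratio 0.14 ± 0.781, exact permutation p = 0.625). These were 6 tests, chosen after the data were seen. With only peaks of score at least 100, the difference between Robo1 and Robo2 no longer passed the exact permutation test (log2 ratio 0.97, p = 0.109), and with 4 peaks added in place of 1 neither did that between Robo1 and the autosomes (−0.24, p = 0.0781).

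Within the Robo1 interval the peaks were bunched. Peaks were placed in 100 kb bins by their midpoint. The 4 adjoining 100 kb bins with the most peaks, chr16:72700000-73100000, held 85 of the 112 peaks (75.9%) and 41 of the 59 merged regions. In young samples this stretch held 11, 22, 13 and 14 peaks, a density of 139% to 171% of the sample's autosomal mean. Aged control samples held 10 and 6 there, 104% and 97.2% of their autosomal mean. Aged enriched samples held 3 and 6, which is 72.3% and 120%. The stretch was picked for its peaks, so these shares describe it and were not tested.

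Crowding was tightest at the upper end of that stretch. The 50 kb with the most regions ran from 72989501 to 73036520 and held 13 regions with 29 peaks from 7 samples, all but aged enriched replicate 1. The bins from 73100000 to the end of the Robo1 side held 4 peaks from 2 samples, young control replicate 2 and aged enriched replicate 2. The first 100 kb of the interval held 0 peaks.

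**Figure D3:**
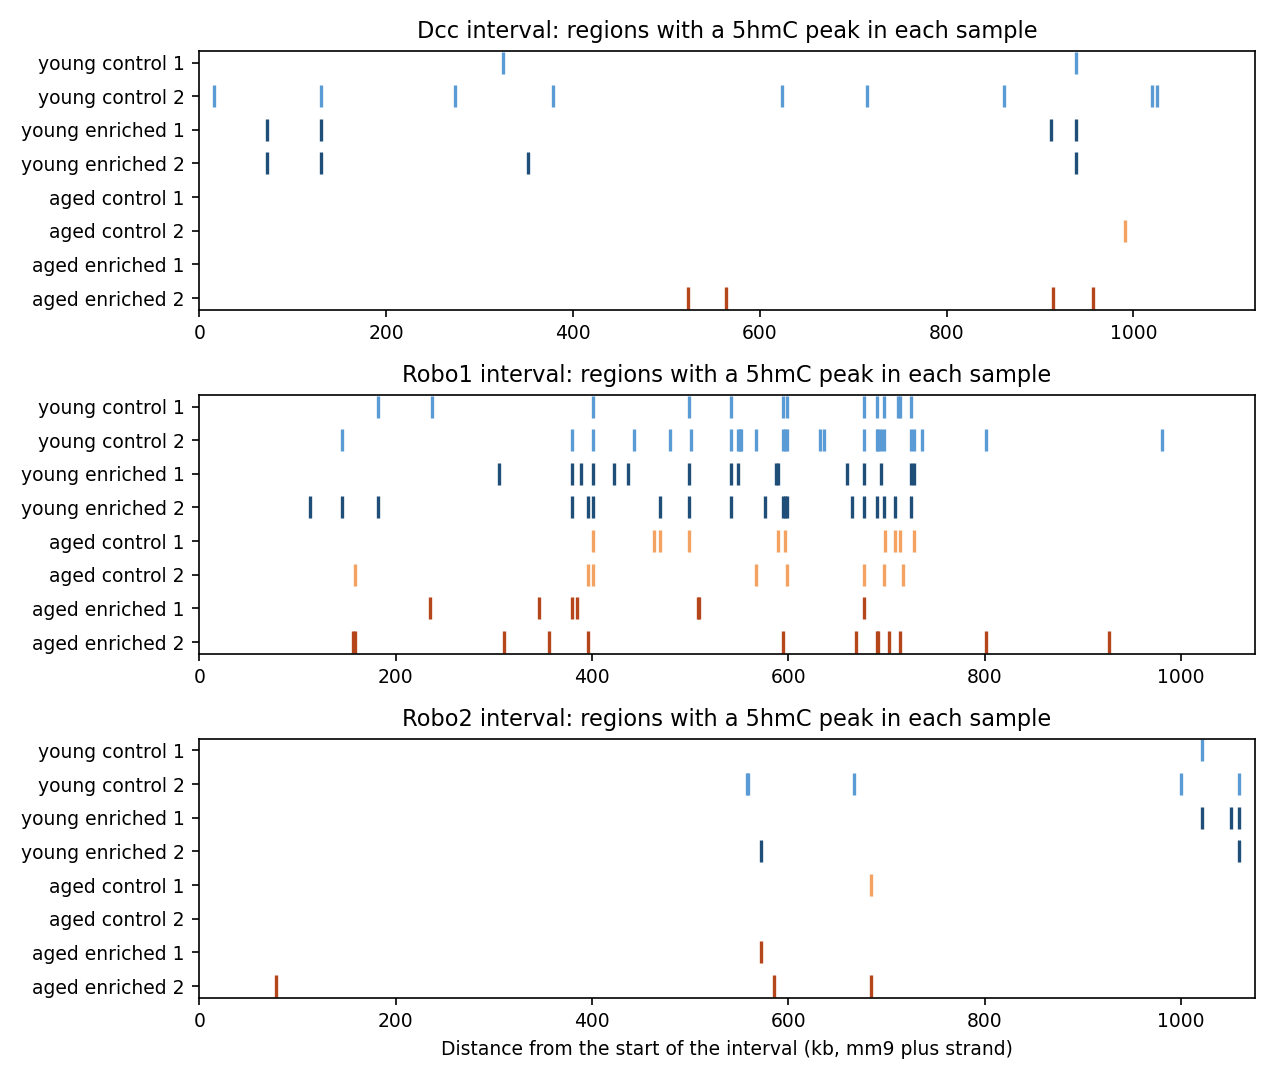
Positions of merged regions with a peak in each sample (rows, coloured by group) along the Dcc, Robo1 and Robo2 intervals, as distance from the start of the interval in kb. Robo1 peaks gather between about 400 and 800 kb in young and aged control samples, with 9 of 20 aged enriched peaks there, while Dcc and Robo2 show scattered peaks with long empty stretches.

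Dcc was less bunched by the same measure, with 11 of its 24 peaks (45.8%) in the 4 adjoining bins with the most. Its peaks were spread over 10 of 12 bins, with at most 7 in a bin (72300000 to 72400000, from 5 samples). That fullest bin held 29.2% of the Dcc peaks, where the fullest Robo1 bin held 25% of its own. Robo2 peaks lay in 4 of 11 bins, and its fullest 4 adjoining bins held 50% of them. Of its 16 peaks, 5 and 3 were in the bins that begin at 73875000 and 73975000, and 7 lay in the last bin, from 74375000 to the end of the interval. The longest gap between regions was 479 kb at Robo2, 146.6 kb at Dcc and 125.2 kb at Robo1.

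Few positions were shared between samples. Overlapping peaks merged into 89 regions, 19 at Dcc, 59 at Robo1 and 11 at Robo2, with median widths of 621, 789 and 692 bp against 892 bp over all 156744 regions of the genome. A peak in only 1 sample made up 16 of 19 regions at Dcc, 34 of 59 at Robo1 and 7 of 11 at Robo2, in all 57 of 89 or 64.0%, where 46.7% of all regions were of this kind. Without aged enriched replicate 2 these counts were 12 of 15, 31 of 53 and 6 of 9. Without young control replicate 2 they were 8 of 11, 31 of 50 and 3 of 7. The genome's share was computed with all 8 lists only, so counts with a list left out cannot be set against it. A peak in all 8 samples was found in 0 of 89 regions, which allows a share of up to 3.37%, and 1.31% of all regions had one. At least 4 samples had a peak in 10 regions, all at Robo1, or 11.2% of the 89 where the genome gave 22.5%. At least 6 samples had a peak in 2 regions, or 2.25% against 8.52%.

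Samples contributed unequally to the unshared regions. Young control replicate 2, the longest list, had 21 of its 40 regions to itself, and aged enriched replicate 2 had 12 of 20. Aged enriched replicate 1 had 5 of 8. The smallest shares were in young enriched replicate 2 (4 of 25), aged control replicate 1 (2 of 11) and young control replicate 1 (3 of 16). Over the genome the share of regions private to a sample was 13.4% to 34.6%, highest in aged enriched replicate 2. Young pairs shared 7 to 13 regions at the 3 genes. The 6 aged pairs shared 0 to 2, with 1 in the aged control pair and 0 in the aged enriched pair. Over the genome the aged control pair shared 32.2% of the regions of replicate 1 and 50.9% of those of replicate 2, against 9.09% and 11.1% at the 3 genes. The aged enriched pair shared 20.9% and 17.3% over the genome. For the young control pair the shares were 67.9% and 37.3% over the genome and 50% and 20% at the 3 genes.

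At Robo1, 2 regions tied for the most samples, and the one whose lowest score was higher was chr16:72699942-72701473 (1532 bp). It had a peak in all young samples, with scores of 66.3 and 163 in control and 197 and 90.4 in enriched. Both aged control samples had it, with scores of 112 and 78.2, and neither aged enriched sample did. The individual peaks were 599 to 1502 bp wide and the score of 197 was higher than or equal to 96.8% of its own list. This was the 1 region of the 89 with a peak in both aged control and neither aged enriched samples, a pattern held by 5.6% of all regions. No region of the 3 genes had the reverse, against 0.561% of all regions.

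A second Robo1 region, chr16:72976651-72978217 (1567 bp), also had a peak in 6 samples. Its scores were 76.2 and 197 in young control, 90.7 and 123 in young enriched, 115 in aged control replicate 2 and 51.2 in aged enriched replicate 1. Aged control replicate 1 and aged enriched replicate 2 lacked it. Its peaks were 918 to 1567 bp wide and largely covered one another.

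In 2 Robo1 regions the ages did not overlap, which is given as a description only. A peak was present in each young sample and absent from each aged one at chr16:73023998-73025099 (1102 bp), with scores of 69.4 and 105 in control and 78.4 and 103 in enriched samples. The same held at chr16:72840967-72841898 (932 bp), with 50.4 and 126 in control and 70.3 and 50.3 in enriched samples. At the latter, 2 of the 4 scores lay within 1 unit of the lowest score in the lists, so a slightly stricter cut would have removed them. This pattern was found in 2 of 89 regions (2.25%) where 0.894% of all regions had it. With only peaks scored 100 or more the count was 0, and in equally long lists it was 1. The regions were picked by this pattern, so it was not tested. No region of the 3 genes had a peak in all 4 aged and no young samples, against 0.00957% of all regions.

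**Figure D4:**
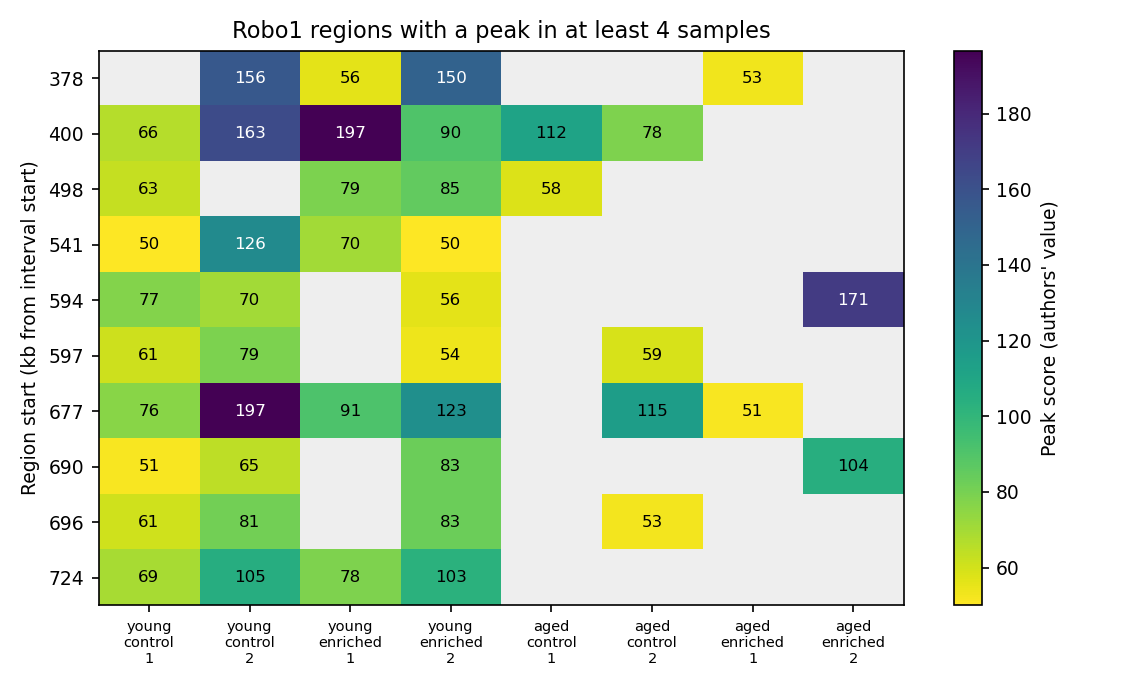
Peak scores (authors' values, coloured and printed) in the 10 Robo1 regions with a peak in at least 4 samples, by region start in kb from the interval start (rows) and sample (columns); grey means no peak. Young columns are mostly filled each aged sample has a peak in 2 to 4 of the 10 regions, and the rows at 541 and 724 kb are filled in young samples only.

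Other shared Robo1 regions mixed both ages, and the 3 given next were chosen after their values were seen. At chr16:72678319-72680076 the scores were 156 in young control replicate 2, 55.9 and 150 in young enriched and 53.2 in aged enriched replicate 1. At chr16:72894427-72895207 they were 77.4 and 70.3 in young control, 56.1 in young enriched replicate 2 and 171 in aged enriched replicate 2, the strongest Robo1 peak of that list. The region at chr16:73027054-73029078 held the strongest peak of all at the 3 genes, 209 in young control replicate 2, together with 68.1 in young enriched replicate 1 and 110 in aged control replicate 1.

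A merged region does not always mean one shared position. The widest Robo1 region, chr16:72897478-72899674 (2197 bp), joined peaks of 4 samples in a chain. Its young control replicate 1 peak ended at 72898207 and its young enriched replicate 2 peak began at 72899008, so those did not overlap. With the regions just below it, from 72894427 and 72895740, it formed a run of 3 regions close together.

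No Dcc region was shared between a young and an aged sample. Of its 19 regions, 14 had peaks in young samples only and 5 in aged samples only, while 39.3% of all regions of the genome had peaks at both ages. The aged peaks were 4 in aged enriched replicate 2, all private to it, 291 to 457 bp wide and scored 105 to 146, and 1 in aged control replicate 2 scored 58.5. Without aged enriched replicate 2 the aged samples held 1 Dcc peak and the young samples 19. The most shared Dcc regions had peaks in 3 young samples each. At chr18:71529915-71530755 (841 bp) the scores were 70.9 in young control replicate 2 and 57.2 and 65.5 in young enriched samples. At chr18:72338390-72339362, the widest at 973 bp, they were 55.6 in young control replicate 1 and 74.99 and 69.0 in young enriched samples.

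A single Dcc region differed between housing groups in young mice, a pattern no more common here than over the genome. At chr18:71472315-71472882 (568 bp) both young enriched samples had a peak, scored 69.4 and 50.6, and neither young control sample did. This was 1 of 89 regions of the 3 genes (1.12%), where 2.13% of all regions had the pattern, and the reverse pattern was found in 0 of 89 against 2.78%. Dcc peaks were weak within their lists: outside aged enriched replicate 2 the highest score was 81.5, and no Dcc peak there reached 100.

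The Robo2 side had the lowest mean density of the 3 intervals. Its most shared and widest region, chr16:74433171-74434385 (1215 bp), had peaks in young control replicate 2 (score 66.9) and both young enriched samples (104 and 89.7), and in no aged sample. A single region joined the ages and is named, like the one after it, after its values were seen. It was chr16:73946308-73947058, with 133 in aged enriched replicate 1 and 50.1 in young enriched replicate 2. The aged enriched peak was the strongest peak of the 3 genes in its list, where 3.19% of peaks scored higher. Another region, chr16:74058717-74059395, had peaks in aged control replicate 1 (53.4) and aged enriched replicate 2 (128). Regions with peaks in young samples only numbered 7 of 11 at Robo2 and 26 of 59 at Robo1, and with Dcc 47 of 89 (52.8%), against 36.1% of all regions. Aged samples only had peaks in 23 of 89 (25.8%), against 24.6%. Without young control replicate 2, the young samples held 10 peaks at Dcc in place of 19 and 6 at Robo2 in place of 11. List length differed between samples, and its part in this share was not tested.

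To compare groups, peaks were taken relative to the length of each list, as log2 of peaks plus 1 per 1000000 list peaks. limma was fitted to all 8 samples over 1548 windows of 1 Mb and the 3 intervals, with Benjamini-Hochberg adjustment over these 1551 features. Windows needed a mean of at least 5 peaks. Dcc and Robo2, with means of 3 and 2 peaks, were kept although they fall under that limit. Without the added peak, Robo1 had 29.7 and 32.9 peaks per 100000 list peaks in young control, 27.8 and 32.0 in young enriched, 16.9 and 21.1 in aged control, and 27.4 and 42.2 in aged enriched samples. Both aged control samples lay below the other 6. Dcc had 4.58 and 11.4, 6.96 and 6.73, 0 and 2.63, and 0 and 13.0 in the same order, so its aged enriched samples were the joint lowest and the highest of all. Robo2 had 2.29 and 6.33, 5.22 and 3.36, 1.69 and 0, and 3.91 and 9.73, with both aged control samples below the other 6.

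No difference with age passed the test at any of the 3 genes. The aged minus young difference at Robo1 was small on the log2 scale (−0.20 ± 0.236 SE, 95% interval −0.68 to 0.28, limma adjusted p = 0.806). Dcc had −0.87 ± 0.524 SE (−1.95 to 0.20, limma adjusted p = 0.592), with 0.387% of features lower still. That rank sets the low counts of Dcc among windows that each hold more peaks on average. Robo2 had −0.11 ± 0.498 SE (−1.13 to 0.91, limma adjusted p = 0.949). limma called 0% of all features for age, with 149 at an unadjusted p under 0.05. An exact permutation test, two-sided, of the 4 aged against the 4 young samples gave p = 0.286 for Dcc, 0.486 for Robo1 and 0.886 for Robo2, where 0.0286 is the smallest possible. The values depend on the added peak, since an interval with 0 peaks in every list would have an age difference of 0.68. With 0.25 peak added Dcc had −1.85 and Robo2 −0.63, and with 4 peaks added Dcc had −0.057 and Robo2 0.33. In equally long lists the difference was 0.58 for Dcc, 0.034 for Robo1 and 0.10 for Robo2, and among peaks scored 100 or more it was 1.38, 0.88 and 1.15. In both of these settings 7 of the 8 lists held 0 Dcc peaks and aged enriched replicate 2, the list that stood apart, held 4. Without that sample the difference over all peaks was −1.39 at Dcc, −0.33 at Robo1 and −0.29 at Robo2. Lists cut at a score of 100 ran from 2535 peaks (aged enriched replicate 1) to 25208 (young control replicate 2). The added peak weighed most in the shortest of them, so the values under that cut mix it with the counted peaks. At Robo1 those lists held 0 and 7 peaks in the same order. No direction with age is given, since its sign changed between settings.

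In young mice, enriched and control samples had close shares at Robo1. The log2 difference was −0.069 ± 0.334 SE (95% interval −0.75 to 0.61, limma adjusted p = 0.996). Dcc had −0.12 ± 0.741 SE (−1.64 to 1.39) and Robo2 0.0070 ± 0.705 SE (−1.43 to 1.45), each with limma adjusted p = 0.996. These intervals admit differences of 2-fold and more at Dcc and Robo2. The Robo2 difference was 1.29 in equally long lists and 0.94 among peaks scored 100 or more, each resting on 0 to 2 peaks per young list. limma called 0% of all features here, with 15 at an unadjusted p under 0.05.

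In aged mice, all 3 genes had a higher share of the list in enriched than in control samples, and none passed the test. The log2 difference was 0.85 ± 0.334 SE at Robo1 (95% interval 0.16 to 1.53, limma adjusted p = 0.134), with both enriched samples above both control samples. At Robo2 it was 1.76 ± 0.705 SE (0.32 to 3.20, limma adjusted p = 0.136), again without overlap, and at Dcc 1.42 ± 0.741 SE (−0.097 to 2.93, limma adjusted p = 0.238), with overlap. limma called 3.61% of all features in this comparison, 2.39% higher and 1.23% lower in enriched samples, and the median feature had a log2 difference of 0.11. The added peak weighs more in a shorter list: an interval with 0 peaks in every list would have a log2 difference of 0.76. With the added peak in proportion to list length the differences were 0.79 at Robo1, 1.604 at Robo2 and 0.84 at Dcc. Without aged enriched replicate 2 they were 0.58, 1.39 and 0.39. The aged enriched list left then held 0 Dcc peaks, against 0 and 1 in aged control. The positive Dcc value there comes from the added peak in a short list and not from a higher share.

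Some settings brought these differences past the threshold and others made them smaller. With quantile normalization they were 0.51 at Robo1, 0.97 at Robo2 and 0.63 at Dcc (limma adjusted p = 0.475, 0.509 and 0.667). By limma, Robo1 and Robo2 passed with 4 added peaks (log2 0.83 and 1.16, adjusted p = 0.0436 each). They also passed with the length under peaks (1.06 and 2.01, adjusted p = 0.0398 and 0.0454). Without aged enriched replicate 1, which leaves 1 aged enriched list, the differences were 1.11 at Robo1, 2.12 at Robo2 and 2.44 at Dcc. Fitted on the 4 aged samples only, limma gave adjusted p-values of 0.379 for Robo1, 0.402 for Robo2 and 0.543 for Dcc. The aged enriched list that differs in peak width and score is the one with more peaks at every gene, and the part of that difference in the result was not tested.

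**Figure D5:**
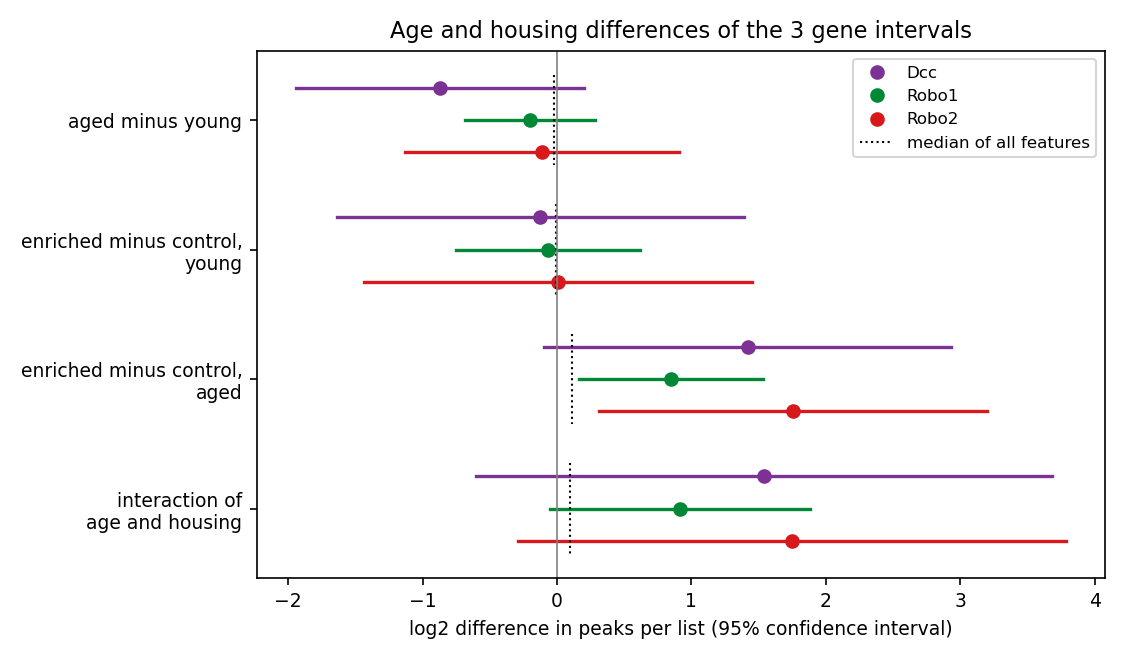
log2 differences in peaks relative to list length for Dcc, Robo1 and Robo2 in 4 comparisons, with 95% confidence intervals from limma (lines) and the median of all 1551 features (dotted). In aged mice the intervals of Robo1 and Robo2 lie above 0 before adjustment for multiple testing, and no comparison passed after it.

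The change of the housing difference with age was tested as an interaction. It was 0.92 ± 0.473 SE at Robo1, 1.75 ± 0.997 SE at Robo2 and 1.54 ± 1.05 SE at Dcc on the log2 scale, with limma adjusted p = 0.456, 0.492 and 0.573. limma called 0.0645% of all features for it. Without aged enriched replicate 2 it was 0.65, 1.39 and 0.52 in the same order, and without aged enriched replicate 1 it was 1.18, 2.12 and 2.57. The aged enriched side of the 0.52 at Dcc is 1 list with 0 Dcc peaks, so it rests on the added peak. In equally long lists it was 0.48, 0.21 and 1.16. A different response to housing at the 2 ages was therefore not shown for these genes.

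Other 1 Mb windows followed similar profiles over the 8 samples. Likeness was the root mean square difference between log2 values, each centred on its own mean, over 1547 windows outside the intervals. The closest to Robo1 were 138 to 139 Mb of chromosome 3 (0.122), 79 to 80 Mb of chromosome 18 (0.123) and 86 to 87 Mb of chromosome 9 (0.14), where the median window was at 0.418. For Dcc they were 177 to 178 Mb of chromosome 1 (0.353), 39 to 40 Mb of chromosome 13 (0.427) and 91 to 92 Mb of chromosome 10 (0.431), and for Robo2 152 to 153 Mb of chromosome 1 (0.164), 70 to 71 Mb of chromosome 8 (0.244) and 52 to 53 Mb of chromosome 9 (0.25). Low counts leave the Dcc and Robo2 profiles imprecise, with whole lists at 0 or 1 peak.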

How the data were processed

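5hmC-enriched DNA of 8 hippocampus samples (4 groups of 2, from the labels) was analysed from the 8 deposited peak lists. Per the submitters' processing notes, CASAVA 1.4, Bowtie 0.12.9, MACS 1.4.2 and mm9 were used. Each sample has its own list. The caller's settings, its background library and read numbers are not stated, so depth is unknown and no interval from read counts was computed. The deposited score is the authors' value per peak, on a scale set by their caller.

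Peaks overlapping the intervals by at least 1 bp were counted with Python 3.11.15 and merged into regions over all lists. Positions are counted from 1. limma 3.58.1 in R 4.3.3 (intensity trend, 4 groups, threshold 0.05) was fitted over windows with a mean of at least 5 peaks plus the 3 intervals, and was tested on simulated data. Differences are on the log2 scale of peaks plus 1 per list. Named by rule were, per gene, the regions in most samples, the widest, up to 3 of each group pattern ranked by lowest score, and the 3 most similar windows. The density test was added after the data were seen. Alternatives were other pseudocounts, score and length limits on lists, quantile normalization, length under peaks, no window filter, a replicate block, other merging rules and each sample left out. The members, lists and tests were chosen with earlier results of these data known. Other netrin and slit signalling genes, which need an mm9 annotation to be placed, were not analysed here.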

Additional observations from a re-analysis of the deposited data

How the results depend on the processing

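Counts of 0 to 9 peaks per list at Dcc and 0 to 5 at Robo2 limit every value there, and read depth is unknown. Results that changed are grouped by setting, as log2 values or counts, and the cause was not tested. With a score of at least 100 the age differences turned to 1.38 (Dcc), 0.88 (Robo1) and 1.15 (Robo2). Those lists held 2535 to 25208 peaks, so the added peak weighed unequally in them. Those of housing in young mice became 0.15 at both Dcc and Robo1. No young list held a Dcc peak under this cut, so the Dcc value comes from list length and the added peak alone. The Robo1 value is identical to it and is not read as a change of direction. The density ratio of Dcc to Robo2 became −0.35 and that of Robo1 to Robo2 0.97 without passing. Regions of all young only, of aged control only and of young enriched only became 0 each. Equally long lists gave 0.58, 0.034 and 0.10 for age, 0.29 at Robo1 and 1.29 at Robo2 for housing in young mice, −0.48 for Dcc against Robo2, 1 region of all young only and 2 of young enriched only. The length under peaks gave 0.014 (Dcc, housing in young), 0.27 (Robo2, age), 1.06 (Robo1) and 2.01 (Robo2) in aged mice, the last pair passing. A pseudocount of 4 peaks gave 0.33 (Robo2, age), −0.043 (Robo2, housing in young), 0.83 and 1.16 (Robo1 and Robo2 in aged mice, now passing) and −0.24 (Robo1 against autosomes, not passing). For housing in aged mice limma called 205 of 1470 features with the length under peaks and 154 of 1551 with 4 added peaks, against 56 in the main fit. Quantile normalization gave 0.55 (Robo2, age). Merging peaks within 500 bp gave 2 regions of aged control only, and presence at 50% of the region gave 0.

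Leaving out 1 sample at a time moved the age difference from −1.39 to −0.36 at Dcc, −0.33 to −0.066 at Robo1 and −0.29 to 0.074 at Robo2. Housing in young mice ran from −0.57 to 0.32, −0.16 to 0.024 and −0.36 to 0.37, and in aged mice from 0.39 to 2.44, 0.58 to 1.11 and 1.39 to 2.12, in the same order. The interaction ran from 0.52 to 2.57, 0.65 to 1.18 and 1.38 to 2.12. The low Dcc ends, 0.39 in aged mice and 0.52 for the interaction, are without aged enriched replicate 2. The aged enriched list left then held 0 Dcc peaks, so its part in both values rests on the added peak. Region counts ran from 2 to 4 (all young only), 1 to 9 (aged control only), 0 to 16 (aged enriched only), 0 to 24 (young control only) and 1 to 10 (young enriched only), since 1 remaining sample was enough to count. With a lone sample in a group, limma assumes that it varies like the others. Features called by limma ran from 0 to 295 for housing in aged mice (56 with all samples) from 0 to 105 for age, and from 0 to 85 for the interaction (1 with all samples, 85 without aged enriched replicate 1).

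With the replicate number as a block, the housing difference in aged mice kept its value and limma adjusted p was 0.127 for Robo1, 0.138 for Robo2 and 0.207 for Dcc, and no call at the 3 genes changed. The values gave no sign that the numbers pair the samples: deviations of same-numbered samples correlated from −0.135 to 0.0958 between groups over 1548 windows. Low correlation cannot show that they are unpaired.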
